A study of Mus musculus with 16 samples.

Results

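Voltage-gated sodium and calcium channel genes are taken here by symbol, as protein-coding genes named Scn followed by a number and a or b, or starting with Cacna, Cacnb or Cacng. The rule found 40 of the 46320 genes in the count table, and 35 of them passed the expression filter and were tested. RNA had been sequenced from motoneuron cultures, which were prepared by p75NTR antibody panning of lumbar spinal cord cells of mice at embryonic day 13. Microfluidic chambers were used to separate the axons from somata and dendrites. Each group had 4 libraries, 16 in all. The groups were +/+ somatodendritic, Hnrnpr-/- somatodendritic, +/+ axonal and Hnrnpr-/- axonal. In Hnrnpr-/- mice the first exons of the RNA-binding protein gene Hnrnpr were deleted with CRISPR/Cas9 on the C57Bl/6 background. All cultures received CNTF at 5 ng per ml in both compartments, and BDNF at 20 ng per ml in the axonal compartment. The sex of the embryos was not recorded. Nothing in the labels ties a library to a single embryo, so the p values measure the spread between libraries of these cultures. The main fit took the 16 libraries as independent. It left out the pairing of the compartments within a culture, which an added block by culture takes in.

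Voltage-gated sodium channels carry the rising phase of the action potential, and voltage-gated calcium channels turn depolarisation into calcium entry. Each channel has 1 large pore protein, encoded by a Cacna1 gene or by an Scn gene that ends in a. Sodium channels add small beta subunits (Scn genes that end in b), which are also adhesion molecules. High-voltage-activated calcium channels add an intracellular beta subunit (Cacnb) and an extracellular alpha2delta subunit (Cacna2d), which govern how many channels reach the membrane. Cav1 pores give L-type currents, Cav2 pores open at presynaptic terminals to release transmitter, and Cav3 pores give low-voltage-activated T-type currents. Most Cacng genes encode TARPs, which traffic AMPA-type glutamate receptors rather than calcium channels. The rule held 10 sodium pore genes, 4 sodium beta genes, 4 Cav1, 3 Cav2 and 3 Cav3 pore genes, 4 alpha2delta genes, 4 calcium beta genes and 8 Cacng genes.

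Total counts per library ranged from 22024923 to 34864151. Hnrnpr had 120 to 422 CPM (counts scaled to a common library size with TMM factors) in +/+ libraries and 0.545 to 1.16 CPM in Hnrnpr-/- libraries. Motoneurons is used here as the study's name for these cultures, in which motoneuron markers were mixed. In +/+ somatodendritic libraries the 8 markers summed to 53.4 to 130 CPM, most of it from Nefh, a neurofilament gene of large neurons (40.4 to 99.9 CPM). The acetylcholine and choline transporter genes Slc18a3 and Slc5a7 had 3.90 to 11.6 and 3.05 to 7.74 CPM, and the transcription factor gene Isl1 3.89 to 8.03 CPM. Mnx1 was at 0 in 15 of the 16 libraries, and Chat, the acetylcholine-synthesising enzyme, had 0.657 to 1.31 CPM in the somatodendritic libraries. Interneuron markers were abundant, with Slc17a6, the vesicular glutamate transporter, at 333 to 491 CPM and Gad1, a GABA-synthesising enzyme, at 238 to 398 CPM in the same libraries. Of the 8 interneuron markers, 8 were lower in +/+ axonal than somatodendritic libraries, with a summed level of 1350 to 1568 CPM in somatodendritic and 39.4 to 316 CPM in axonal libraries. Of 7 astrocyte or radial glia markers, 4 were higher and 0 lower in +/+ axons, with a sum of 1042 to 1419 CPM in somatodendritic and 2007 to 4834 CPM in axonal libraries. Of 9 fibroblast or mural markers, 3 were higher and 0 lower (Acta2, Pdgfrb and Myh11). The 9 markers summed to 77.6 to 721 CPM against 1065 to 10274 CPM. Most of the 10274 CPM, found in +/+ axonal replicate 3, came from Acta2 alone. Of all genes tested, 27.4% were lower and 30.1% higher in +/+ axons, so that the share of fibroblast or mural markers called higher was near that of all genes. The 6 nuclear RNA markers summed to 1090 to 1419 CPM in +/+ somatodendritic and 629 to 2705 CPM in +/+ axonal libraries. Of these markers, 2 were lower and 3 higher in +/+ axons, and 2 lower and 1 higher in Hnrnpr-/- axons. In these bulk samples, fewer neurites among other cells and less RNA per neurite cannot be told apart. The part of other cells or of nuclei in the results was not tested.

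The sodium pore genes are so alike that single reads cannot always be assigned among them, which bears on how their values are read. Scn1a, Scn2a, Scn3a and Scn9a lie together on chromosome 2, as does Scn7a. Of the coding sequences of the canonical GENCODE transcripts, Scn2a and Scn1a shared an identical run of 188 bases, Scn3a and Scn9a one of 184 bases, and Scn2a and Scn3a one of 143 bases. The reads were 100 bases long. Over whole transcripts, 2.91% of the 100-base windows of Scn3a, 1.96% of those of Scn9a, 1.56% of those of Scn2a and 1.22% of those of Scn1a also occurred exactly in another of the 40 genes, and none of those of the other 36 genes did. Reads with several alignments were divided among them by the authors, and the deposited counts held fractions in 14 of 16 libraries for Scn3a and Scn1a, 13 for Scn2a and 12 for Scn9a. Fractions also occurred for genes with no shared window, such as Scn3b and Cacna1g in 12 libraries, so they are not particular to these 4 genes. The separate values of these 4 genes are therefore uncertain by the divided reads. The summed level of all sodium pore genes does not depend on how reads are divided among them, apart from the gene lengths used to scale it.

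Levels of different genes were compared per length, as CPM per kilobase of exon. In +/+ somatodendritic libraries, the sodium channel beta gene Scn3b was highest, with 72.7 ± 7.09 CPM per kilobase (SD, n = 4). It was followed by the TARP genes Cacng3 (48.9 ± 2.29) and Cacng4 (44.6 ± 5.69), the calcium beta gene Cacnb3 (37.3 ± 4.87), the alpha2delta gene Cacna2d3 (37.2 ± 2.45) and the sodium pore gene Scn2a (29.4 ± 3.59), all in CPM per kilobase. Cacng3 and Cacng4 overlapped in range, as did Cacnb3 with Cacng4, Cacna2d3 and Scn2a. This order depends on the gene length, which in the count table takes in all annotated exons. With the canonical transcript in its place, Scn3b (70.1 ± 6.84) and Cacnb3 (70.1 ± 9.14 CPM per kilobase) overlapped, followed by Cacng4 (46.5 ± 5.94), while Cacng3 had 26.8 ± 1.25 CPM per kilobase. Among the calcium pore genes, Cacna1a (4.67 ± 0.34), Cacna1h (4.57 ± 0.85) and Cacna1b (4.37 ± 0.50) stood at a like level per kilobase, and their ranges overlapped. The exon length used for Cacna1e, 54709 bases, is that of all its annotated exons together and lowers its level per kilobase. Summed over each class, sodium pore RNA was 57.5 ± 6.74, calcium pore RNA 19.3 ± 1.93, alpha2delta RNA 63.4 ± 5.37 and calcium beta RNA 56.5 ± 6.02 CPM per kilobase. With the canonical transcript lengths these sums were 74.4 ± 8.07, 26.8 ± 2.76, 72.5 ± 5.96 and 100.5 ± 10.95 CPM per kilobase, so the order of the classes depends on the length used. The pore genes of muscle (Scn4a, Cacna1s), of nociceptors (Scn10a, Scn11a) and of photoreceptors (Cacna1f) did not pass the expression filter. Their highest value was 0.497 CPM (Scn11a) in somatodendritic and 1.31 CPM (Cacna1s, in Hnrnpr-/- replicate 1) in axonal libraries.

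**Figure D1:**
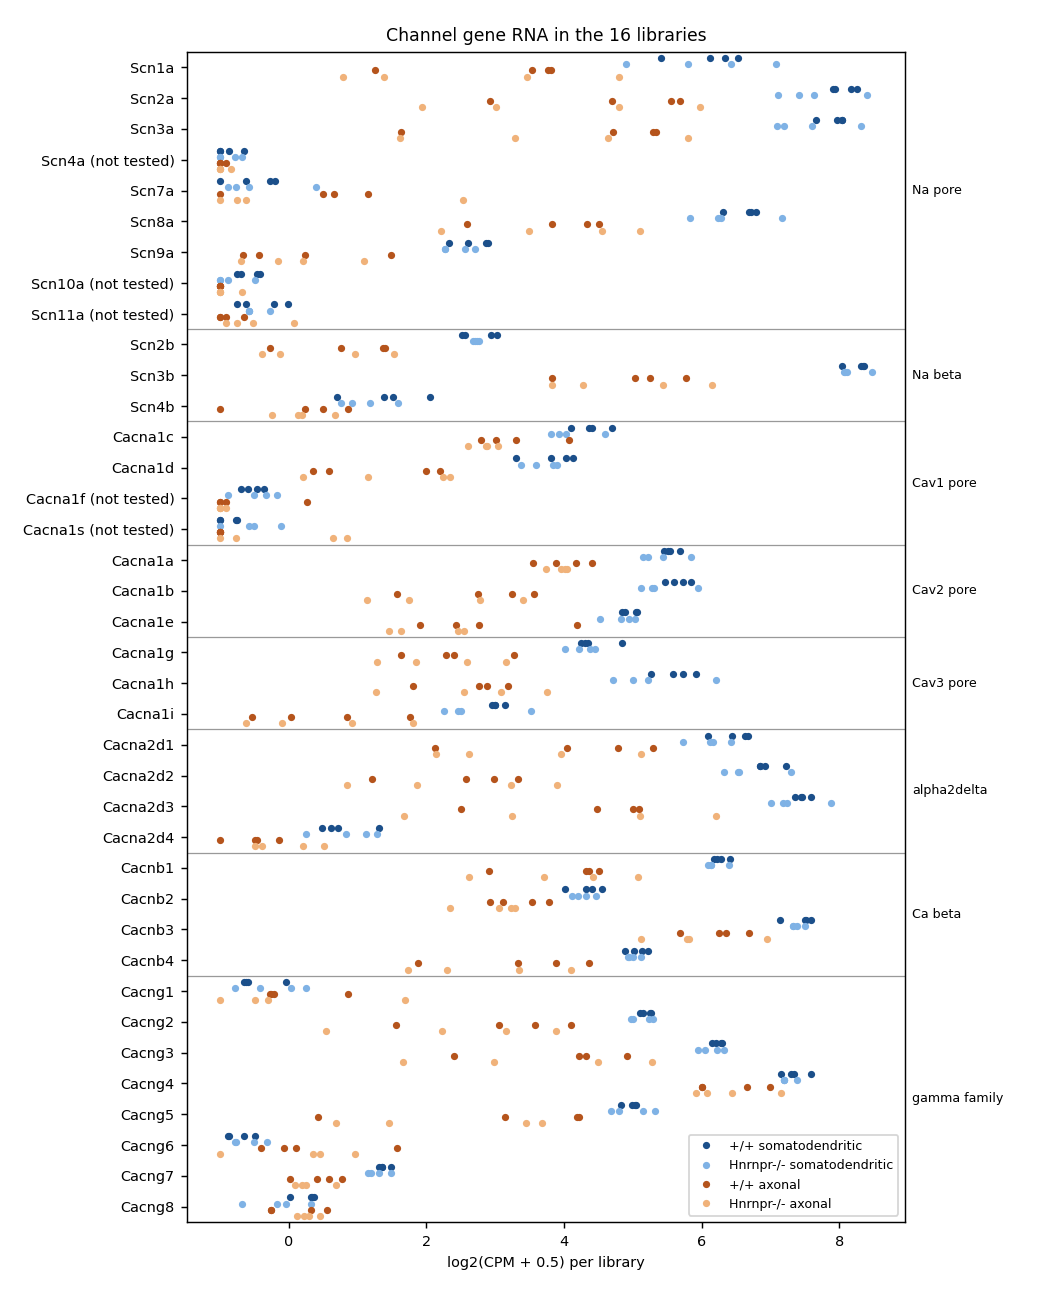
Level of 38 of the 40 genes in each library, as log2(CPM + 0.5), with genes ordered by subunit class. Axonal libraries (brown, orange) lie to the left of somatodendritic libraries (dark and light blue) for most genes, for example Cacna2d2, Scn2a and Scn3b.

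The first comparison asked which channel genes differed between the compartments of +/+ motoneurons. RNA of 28 of the 35 tested genes was lower and that of 1 was higher in axons at an adjusted p under 0.05 (edgeR quasi-likelihood test, adjusted over all genes tested). Over all 19964 genes tested, 27.4% were lower and 30.1% higher in axons. The median log2 fold change of the tested channel genes was -2.03, against 0.07 over all genes tested. Every axonal library lay below every somatodendritic one for 29 of the 35 tested genes, a pattern that 27.6% of all tested genes had. The lower calls took in 5 of 7 tested sodium pore genes, 3 of 4 sodium beta genes, 8 of 8 tested calcium pore genes, 4 of 4 alpha2delta genes, 4 of 4 calcium beta genes and 4 of 8 Cacng genes. The median log2 fold change was -2.83 for sodium pore, -2.75 for alpha2delta, -2.63 for Cav3 and -1.93 for Cav2 genes. It was -1.91 for sodium beta, -1.82 for Cav1, -1.33 for calcium beta and -1.05 for Cacng genes. In Hnrnpr-/- motoneurons the order differed, with Cav2 genes lowest at -2.89 and alpha2delta genes at -2.36. No test of the difference between classes was made.

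**Figure D2:**
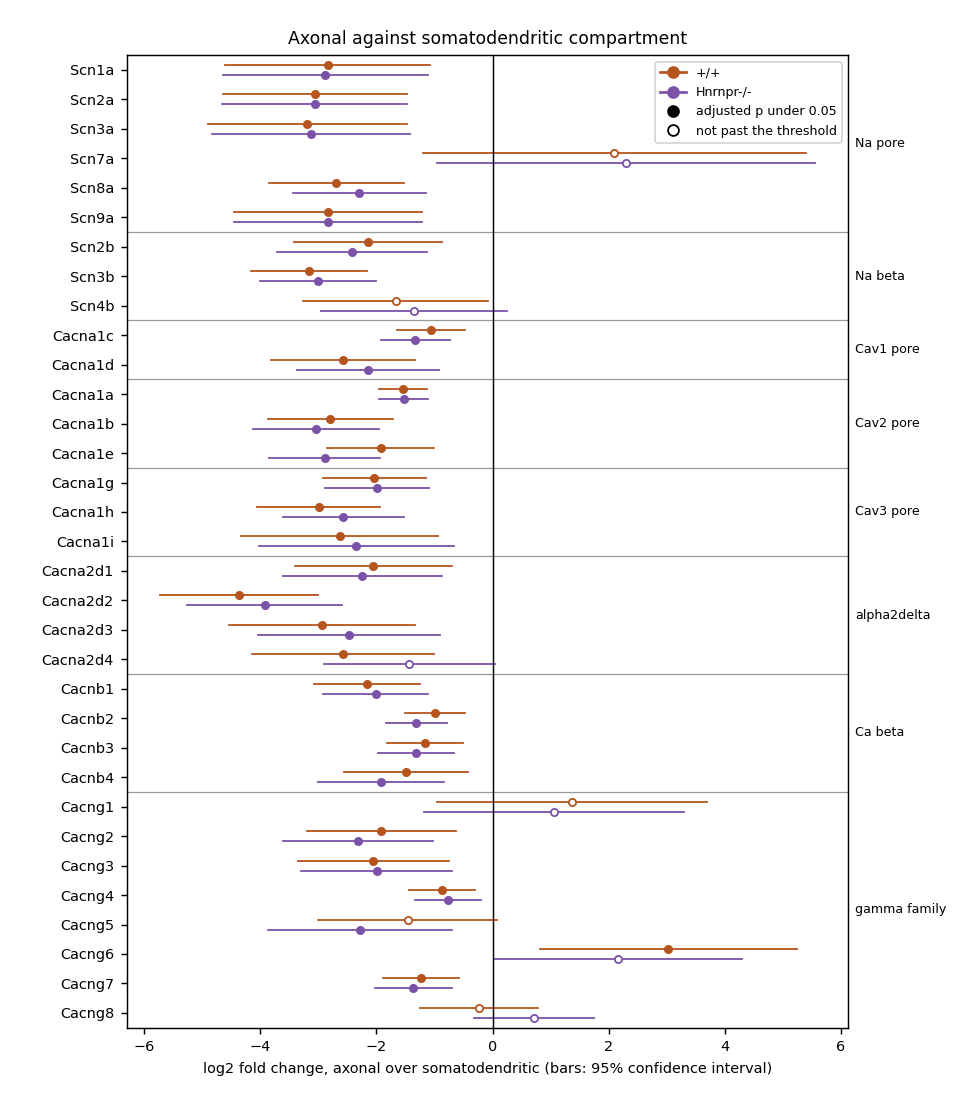
Log2 fold change of 33 tested genes between axonal and somatodendritic libraries in +/+ (brown) and Hnrnpr-/- motoneurons (purple), with 95% confidence intervals. Filled points passed the adjusted threshold, and the points farthest to the left belong to Cacna2d2, at -4.37 in +/+ and -3.92 in Hnrnpr-/- motoneurons.

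Summed sodium pore RNA had 8.30 ± 3.13 CPM per kilobase in +/+ axons, against the 57.5 of somata given above. Scn2a, a pore of young axons, had 289, 306, 244 and 240 CPM in +/+ somatodendritic and 25.4, 50.8, 7.08 and 46.6 CPM in +/+ axonal libraries. The groups did not overlap, and axonal replicate 3 was the lowest. The difference was -3.05 on the log2 scale, with a standard error (SE) of 0.75 and an adjusted p of 0.00307 from edgeR. Scn3a, an embryonic pore, fell from 244 ± 28.8 to 26.8 ± 17.3 CPM (log2 fold change -3.19, SE 0.80). Scn1a fell by 2.83 on the log2 scale. Scn9a had 4.51 to 6.93 CPM in +/+ somatodendritic and 0.681, 0.243, 0.12995 and 2.29 CPM in +/+ axonal libraries (log2 fold change -2.83, SE 0.76), and without axonal replicate 4, the highest, its log2 fold change was -4.03. Scn8a, the pore of mature initial segments and nodes of Ranvier, fell from 98.9 ± 13.6 to 15.3 ± 7.46 CPM (log2 fold change -2.69, SE 0.55).

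Axonal replicate 3 of either genotype stood apart from the other libraries. These 2 libraries had the highest Acta2, a smooth muscle actin, with 9784 and 8734 CPM against 936 to 3664 CPM in the other axonal libraries. They had the highest Rrad, a small GTPase that binds calcium beta subunits, with 34.1 and 32.6 CPM against 1.35 to 14.8 CPM. They also had the lowest interneuron sums of their groups, 39.4 and 25.5 CPM, and held the lowest value of their group for 25 of 35 tested channel genes in +/+ and 24 of 35 in Hnrnpr-/- axons. The same count was not made over all genes, so it does not set the channel genes apart from other genes. The part of other cells in these values was not tested. Scn7a had 0 to 0.376 CPM in +/+ somatodendritic and 0 to 1.71 CPM in +/+ axonal libraries, and its difference did not pass the threshold (adjusted p = 0.259 from edgeR). It did with each culture as a block, which pairs the compartments (log2 fold change 2.11, adjusted p = 0.0374 from edgeR). Scn7a reached the level cutoff of the expression filter in 2 of 8 somatodendritic and 4 of 8 axonal libraries, so it was tested through the compartment where it was higher.

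Of the sodium beta genes, Scn3b changed most. It had 327, 318, 263 and 324 CPM in +/+ somatodendritic and 37.5, 32.2, 13.6 and 54.4 CPM in +/+ axonal libraries, so each axonal library lay below all somatodendritic ones. The log2 fold change was -3.16 (SE 0.47, adjusted p = 0.000116 from edgeR). Scn2b fell by 2.15 on the log2 scale, from 6.38 ± 1.23 to 1.43 ± 0.86 CPM. Scn4b had 1.13 to 3.64 CPM in +/+ somatodendritic and 0 to 1.32 CPM in +/+ axonal libraries and did not pass the threshold (log2 fold change -1.67, adjusted p = 0.0689 from edgeR). It passed without +/+ axonal replicate 2, the library at 0 (adjusted p = 0.0306 from edgeR), without +/+ axonal replicate 4 (0.0463), and with the replicate number as a block (adjusted p = 0.047 from edgeR), but not with each culture as a block (adjusted p = 0.0775 from edgeR).

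All 8 tested calcium pore genes were lower in +/+ axons, by unequal amounts. Cacna1a, the P/Q-type pore of motor nerve terminals, had 45.2, 51.1, 46.0 and 43.1 CPM in +/+ somatodendritic and 11.2, 14.2, 20.7 and 17.6 CPM in +/+ axonal libraries. Here axonal replicate 3 was the highest of its group, unlike for most of the other genes. The log2 fold change of -1.54 had the smallest SE of the 35 genes, 0.20 (adjusted p = 4.62e-05 from edgeR). Cacna1b, the N-type pore of growing terminals, had 48.0, 57.1, 43.7 and 52.3 CPM in somatodendritic and 6.23, 8.95, 2.47 and 11.4 CPM in axonal libraries (log2 fold change -2.79, SE 0.50). Cacna1e, the R-type pore, fell by 1.93 on the log2 scale, and by 2.67 without +/+ axonal replicate 2.

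Among the Cav3 pores, Cacna1h fell from 49.5 ± 9.19 to 6.20 ± 2.35 CPM (log2 fold change -2.995, SE 0.50). Cacna1g and Cacna1i fell by 2.03 and 2.63 on the log2 scale, and Cacna1i by 3.47 without +/+ axonal replicate 4. Of the L-type pores, Cacna1d fell by 2.58 on the log2 scale and Cacna1c by 1.06 (SE 0.28), from 20.7 ± 3.63 to 9.92 ± 4.47 CPM. As a share of the summed calcium pore RNA per kilobase, Cacna1a took 22.6 to 27.7% in +/+ somata and 30.3 to 60.1% in +/+ axons, and Cacna1b 21.1 to 23.7% and 6.17 to 16.9%. Neither pair of ranges overlapped, but with the canonical transcript lengths those of Cacna1a did (17.4 to 22.2% and 20.7 to 48.5%). In the Hnrnpr-/- libraries the ranges of Cacna1a overlapped (23.6 to 28.5% and 27.4 to 57.1%), and those of Cacna1b did not (22.1 to 22.6% and 5.36 to 14.9%). Cacna1c likewise took 6.08 to 8.36% in somata and 10.1 to 21.9% in axons.

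The alpha2delta genes held the largest decrease of the 35 genes in +/+ motoneurons. Cacna2d2 had 121, 150, 115 and 115 CPM in +/+ somatodendritic and 5.45, 9.52, 1.82 and 7.40 CPM in +/+ axonal libraries. All axonal values were far below the somatodendritic ones (log2 fold change -4.37, SE 0.64, adjusted p = 0.000104 from edgeR). Cacna2d3, the most abundant alpha2delta gene per length, had 174, 191, 174 and 163 CPM in somatodendritic and 33.4, 31.6, 5.17 and 21.8 CPM in axonal libraries (log2 fold change -2.93, SE 0.75). Cacna2d1, the subunit known to bind gabapentin and thrombospondin, had 67.4, 98.8, 86.5 and 102 CPM in somatodendritic and 15.9, 38.8, 3.87 and 27.1 CPM in axonal libraries (log2 fold change -2.05, SE 0.63). Within each library, the log2 ratio of Cacna2d2 to Cacna2d1 CPM was 0.17 to 0.84 in +/+ somata and -2.03 to -1.09 in +/+ axons. It was 0.20 to 0.89 and -1.60 to -0.77 in the Hnrnpr-/- libraries, so that in both genotypes no axonal library reached a somatodendritic one. Of the summed alpha2delta RNA per kilobase, Cacna2d2 made up 33.0 to 36.9% in +/+ somata and 10.9 to 19.7% in +/+ axons. Cacna2d4 was scarce, with 0.9002 to 1.99 CPM in somatodendritic and 0 to 0.409 CPM in axonal libraries of +/+ motoneurons (log2 fold change -2.57, adjusted p = 0.00816 from edgeR). It reached the cutoff of the expression filter in 8 of 8 somatodendritic and 3 of 8 axonal libraries, so it was tested through the compartment where it was higher.

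**Figure D3:**
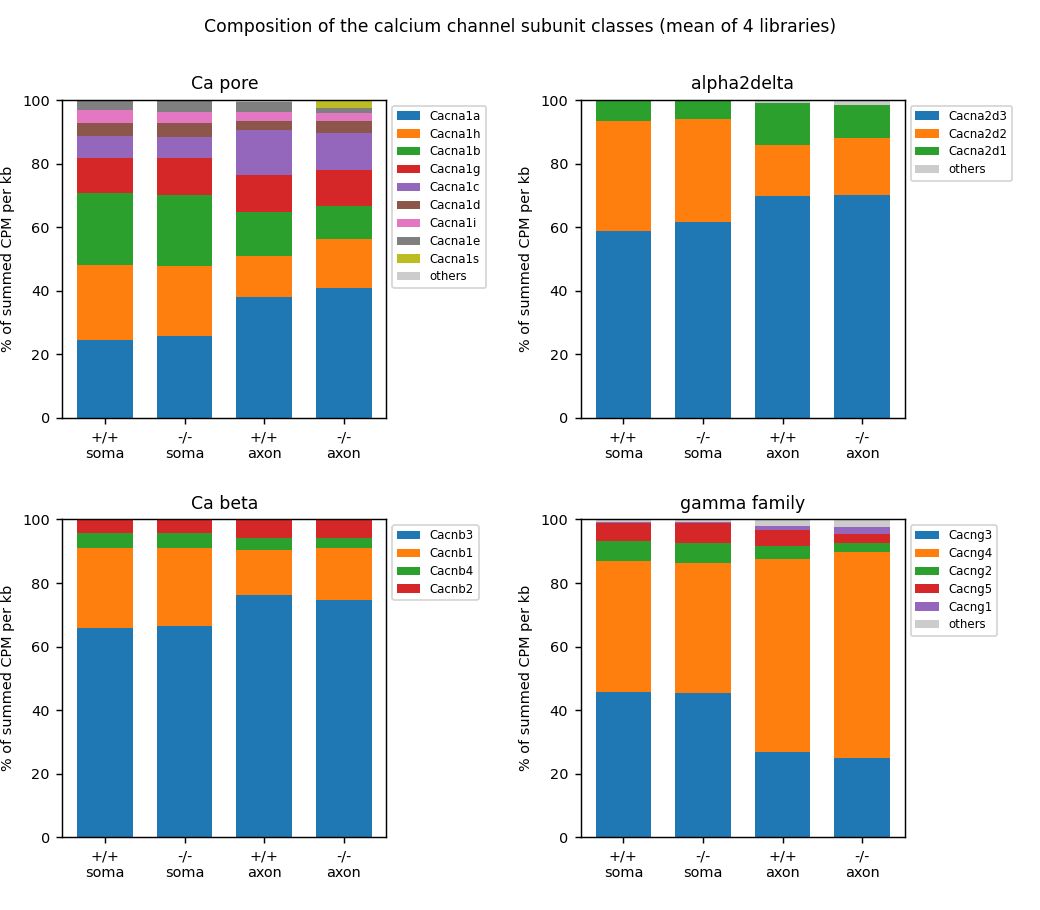
Mean share (n = 4 libraries) of each gene in the summed CPM per kilobase of its calcium channel subunit class, from 0 to 100%, for the 4 groups (soma: somatodendritic; axon: axonal). The mean shares of Cacna1a and Cacng4 are larger in axons than in somata in both genotypes, though the ranges of the Hnrnpr-/- libraries overlap, and that of Cacna2d2 is smaller.

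All 4 genes of calcium beta subunits, which sit on the cytoplasmic side of the pore, were lower in +/+ axons. Cacnb3 had 182, 193, 180 and 141 CPM in +/+ somatodendritic and 81.1, 75.8, 51.1 and 102 CPM in +/+ axonal libraries (log2 fold change -1.16, SE 0.31, adjusted p = 0.00476 from edgeR). It was the most abundant calcium beta gene per length in both compartments, with 62.9 to 67.4% of the class in +/+ somata and 70.6 to 82.0% in +/+ axons. In the Hnrnpr-/- libraries these ranges overlapped (65.4 to 67.2% and 67.1 to 78.9%). Cacnb1 fell more, from 77.0 ± 5.68 to 17.2 ± 6.90 CPM (log2 fold change -2.16, SE 0.42). Cacnb2 fell by 0.99 and Cacnb4 by 1.49 on the log2 scale. Summed calcium beta RNA was 21.96 ± 6.19 CPM per kilobase in +/+ axons, against 4.40 ± 1.11 for calcium pore RNA and 6.93 ± 3.73 for alpha2delta RNA.

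The Cacng genes were the most mixed class. Cacng3 and Cacng2, TARPs of neurons, fell by 2.05 and 1.91 on the log2 scale. Cacng7 fell by 1.23 on the log2 scale and had 0.511 to 1.22 CPM in +/+ axons. Cacng4 had 161, 157, 141 and 191 CPM in +/+ somatodendritic and 127, 101, 63.5 and 63.8 CPM in +/+ axonal libraries, the smallest decrease that passed the threshold (log2 fold change -0.87, SE 0.27, adjusted p = 0.0116 from edgeR). It did not pass without +/+ axonal replicate 3 (log2 fold change -0.70, adjusted p = 0.0511 from edgeR). Of the oligodendrocyte lineage markers in the same axonal libraries, Olig1 was at 712, 394, 461 and 147 CPM and Pdgfra at 186, 36.9, 39.9 and 10.6 CPM, and their part in the Cacng4 level was not tested. Cacng4 took 39.003 to 44.5% of the summed Cacng RNA per kilobase in +/+ somata and 48.8 to 78.5% in +/+ axons, and Cacng3 43.4 to 47.0% and 14.2 to 34.5%. In the Hnrnpr-/- libraries the ranges overlapped for both, with 37.6 to 46.7% and 37.5 to 83.9% for Cacng4.

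Cacng5 had 27.8 to 32.6 CPM in +/+ somatodendritic and 8.31, 18.1, 0.845 and 17.7 CPM in +/+ axonal libraries. The groups did not overlap, yet the test did not pass (log2 fold change -1.46, adjusted p = 0.0969 from edgeR). It passed without axonal replicate 3 of both genotypes (log2 fold change -1.09, adjusted p = 0.0436 from edgeR), and with the replicate number as a block (log2 fold change -1.82, adjusted p = 0.0454 from edgeR), but not with each culture as a block (adjusted p = 0.0525 from edgeR). Cacng6 was the only tested channel gene called higher in +/+ axons. It reached the level cutoff of the expression filter in 0 of 8 somatodendritic and 6 of 8 axonal libraries, so it was tested only through the compartment where it was higher, and 3 of 4 +/+ somatodendritic libraries held at most 3 counts. It had 0.211, 0.135, 0.0414 and 0.0469 CPM in somatodendritic and 0.579, 2.49, 0.260 and 0.459 CPM in axonal libraries (log2 fold change 3.03, SE 1.04, adjusted p = 0.0217 from edgeR). Without +/+ axonal replicate 2, the highest library, the log2 fold change was 1.89 and did not pass (adjusted p = 0.112 from edgeR), nor did it without somatodendritic replicate 3 (0.0577) or 4 (0.0562). Of the Cacng6 exon bases in GENCODE, 20.9% overlap exons of 3300002P13Rik on the other strand, a non-coding gene that had 0.563 to 1.33 CPM in +/+ somatodendritic and 0.272 to 0.784 CPM in +/+ axonal libraries. The library kit does not mark strand, so reads of the overlap cannot be assigned to either gene. In all, 20 of the 40 channel genes have exons that overlap a gene on the other strand, among them 15.7% of the Cacnb4 exon bases, 9.72% of those of Cacna1d (with the protein-coding gene Chdh) and 8.24 to 9.55% in Cacng2, Cacng4, Cacng7 and Cacng8. Cacng1, the gamma subunit of the muscle calcium channel, and Cacng8 did not pass in +/+ motoneurons (adjusted p = 0.295 and 0.696 from edgeR).

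**Figure D4:**
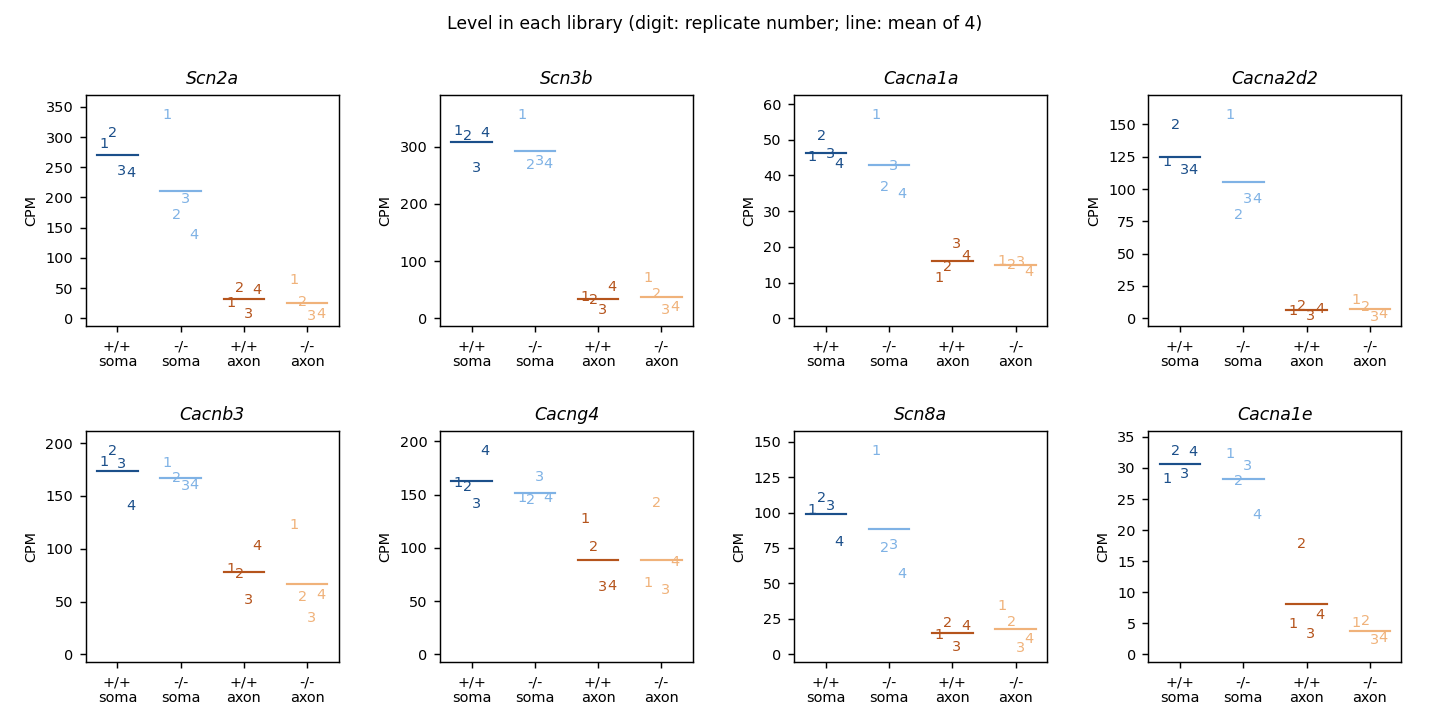
CPM of 8 channel genes in each library on a linear axis from 0, with the replicate number as the symbol and the mean of 4 libraries as a line. Scn2a, Scn3b and Cacna2d2 are lowest of their group in axonal replicate 3 of both genotypes, and Cacna1e is highest among axons in +/+ replicate 2.

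Genes whose products bind the channels were described from lists of partners. Of 17 sodium channel partners, 15 were lower and 0 higher in +/+ axons, with a median log2 fold change of -2.09. The largest decreases were those of Sptbn4, a spectrin of the initial segment (log2 fold change -3.26, SE 0.63), and Cntn2, an adhesion molecule of juxtaparanodes (-2.72, SE 0.60). Of 14 tested calcium channel partners, 9 were lower and 2 higher. Rimbp2 and Rims1, active zone scaffolds, fell by 3.586 and 2.996 on the log2 scale. The 2 increases were those of Rrad and Gem, small GTPases that bind the beta subunit, at 3.98 (SE 0.79) and 1.63 (SE 0.48) on the log2 scale. Of the sodium leak channel complex, 3 of 3 tested genes were lower, the largest decreases being those of Nalcn, the pore (log2 fold change -3.31, SE 0.59), and Unc80 (-1.90, SE 0.51). The interneuron markers, for comparison, had a median of -2.69 on the log2 scale.

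In Hnrnpr-/- motoneurons, RNA of 28 of the 35 tested channel genes was lower and that of 0 higher in axons than in somata (edgeR, adjusted p under 0.05), with 29 genes at an unadjusted p under 0.05. Over all genes tested, 26.8% were lower and 27.5% higher. The median log2 fold change of the channel genes was -2.01, against -0.00 over all genes tested. For 28 of the 35, every axonal library lay below every somatodendritic one, which held for 27.3% of all tested genes. In both genotypes 27 channel genes were called lower. Cacna2d4 was called in +/+ motoneurons alone and Cacng5 in Hnrnpr-/- motoneurons alone, and neither difference between the genotypes passed its own test. Cacng6, called higher in +/+ axons, had 0.0838 to 0.3003 CPM in Hnrnpr-/- somatodendritic and 0, 0.8696, 0.7802 and 1.46 CPM in Hnrnpr-/- axonal libraries and did not pass (log2 fold change 2.17, adjusted p = 0.0793 from edgeR).

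Cacna2d2 had 157, 79.5, 92.5 and 92.2 CPM in Hnrnpr-/- somatodendritic and 14.5, 8.85, 1.29 and 3.15 CPM in Hnrnpr-/- axonal libraries. Its log2 fold change was -3.92 (SE 0.63, adjusted p = 0.000223 from edgeR). Scn2a had 336, 171, 197 and 138 CPM in somatodendritic and 62.6, 27.5, 3.33 and 7.56 CPM in axonal libraries (log2 fold change -3.06, SE 0.75). Without Hnrnpr-/- axonal replicate 1, the log2 fold change of 11 called genes moved by over 1.5 times on the linear scale, that of Scn2a to -4.05 and that of Cacna2d2 to -4.58. Replicate 1 was the highest of its group for 25 of 35 tested channel genes in Hnrnpr-/- somata and for 24 of 35 in Hnrnpr-/- axons. This count was not made over all genes either. Replicate 1 also had the highest interneuron sum of the axonal libraries, 624 CPM. Scn3b fell by 3.01 and Cacna1b by 3.04 on the log2 scale, and Cacna1a by 1.52 (SE 0.20). Cacng4 (log2 fold change -0.77, adjusted p = 0.0236 from edgeR) and Cacna1i (-2.35, adjusted p = 0.0203) were close to the threshold, and each lost its call when some single libraries were left out. Without both libraries of Hnrnpr-/- replicate 4, 23 genes were called lower. In that replicate Myog, a muscle regulator, had 2.703 CPM in somatodendritic and 18.6 CPM in axonal RNA, against 0 to 0.0291 CPM in the other 14 libraries. The axonal library of that replicate also had the highest values of its group for Scn7a (5.30 CPM), which Schwann cells and muscle are known to express, and Cacng1 (2.72 CPM). The part of muscle cells in these values was not tested.

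The next comparison was between the genotypes within each compartment. In somata, 0 of the 35 tested channel genes differed between Hnrnpr-/- and +/+ motoneurons (edgeR, adjusted p under 0.05), against 1 gene or 0.00501% of all genes tested. At an unadjusted p under 0.05 there were 0 channel genes, against 0.601% of all genes, and with default DESeq2 also 0. The log2 fold changes ranged from -0.70 (Cacng8) to 0.75 (Cacng1), and 29 of 35 were below 0. The summed interneuron markers were 1693 CPM in Hnrnpr-/- somatodendritic replicate 1 and 990.3 to 1209.8 CPM in the other 3, against the 1350 to 1568 CPM of +/+ libraries. The astrocyte or radial glia markers summed to 973 CPM in replicate 1 and 1389 to 2077 CPM in the other 3, against 1042 to 1419 CPM. The part of these cells in the channel gene values was not tested. Somatodendritic libraries were less spread than axonal ones, with a biological coefficient of variation of 0.231 against 0.55, and the model gives both 1 spread. In a fit of the 8 somatodendritic libraries alone, the smallest unadjusted p among 32 tested channel genes was 0.0516, and for 30 of them the 95% confidence interval of the log2 fold change lay between -1 and 1. For Scn2a, that fit gave -0.34 (95% confidence interval -0.88 to 0.19), for Cacna1a -0.10 (-0.45 to 0.25) and for Cacna2d2 -0.24 (-0.70 to 0.23).

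In axons, 0 of the 35 tested channel genes differed between the genotypes after adjustment in edgeR, against 2 genes or 0.01% of all genes tested. At an unadjusted p under 0.05 there was 1 channel gene, against 3.88% of all genes tested. The count was 4 of 40 with default DESeq2 and with no expression filter. It was 1 to 4 with single libraries left out, reaching 4 without +/+ axonal replicate 1 or 3 or Hnrnpr-/- axonal replicate 1. The share over all genes was not counted for these alternatives. The 1 gene of the main fit was Cacna1e, with 4.90, 17.7, 3.25 and 6.30 CPM in +/+ and 5.00, 5.37, 2.25 and 2.59 CPM in Hnrnpr-/- axonal libraries. The groups overlapped, and +/+ replicate 2 alone stood above the rest. The log2 fold change was -1.08 (95% confidence interval -1.99 to -0.17, unadjusted p = 0.0226, adjusted p = 1 from edgeR), and a fit of the axonal libraries alone gave an unadjusted p of 0.0855. Without +/+ axonal replicate 2 the log2 fold change was -0.34 (unadjusted p = 0.274 from edgeR), and without Hnrnpr-/- axonal replicate 3 or 4 the unadjusted p was 0.0683 or 0.0641 in edgeR. For Scn2a the log2 fold change was -0.36 (95% confidence interval -1.84 to 1.11), for Cacna1a -0.10 (-0.51 to 0.32) and for Cacna2d2 0.20 (-1.01 to 1.41). Without Hnrnpr-/- axonal replicate 1 the log2 fold change was -1.34 for Scn2a and -0.45 for Cacna2d2, and over the alternatives these ran from -1.34 to 0.01 and from -0.45 to 0.56. The median over the channel genes lay between -0.48 and 0.13 with single libraries left out. At this spread, a change of 2-fold in Scn2a or Cacna2d2 in either direction lies within the interval. For 7 of the 35 genes the interval lay between -1 and 1. Since the shared spread is smaller than that of the axonal libraries, these intervals are too narrow. In the fit of the axonal libraries alone, the interval lay between -1 and 1 for 2 of 34 genes, and for Cacna2d2 it ran from -1.48 to 1.83.

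**Figure D5:**
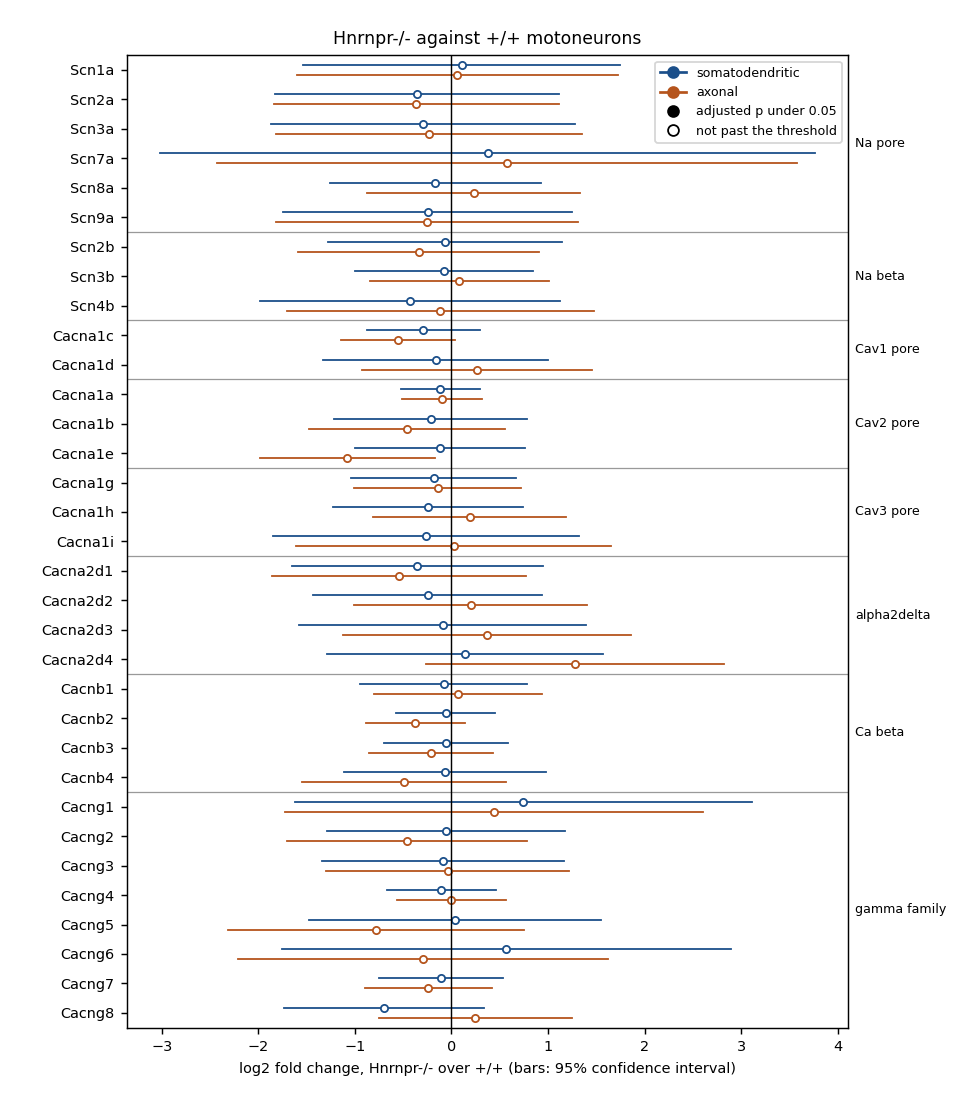
Log2 fold change of 33 tested channel genes between Hnrnpr-/- and +/+ motoneurons in somatodendritic (blue) and axonal libraries (brown), with 95% confidence intervals. No point is filled, since none of the 35 genes passed the adjusted threshold in either compartment, and the axonal interval of Cacna1e is the only one that leaves out 0.

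The genotype effect was then compared between the compartments. It differed for 0 of 35 channel genes (edgeR, adjusted p under 0.05), as for 0% of all genes tested. At an unadjusted p under 0.05 there were also 0 channel genes, against 1.33% of all genes. At this unadjusted threshold default DESeq2 gave 1, the fit with no expression filter 3, and fits with single libraries left out 0 to 2. The share over all genes was not counted for these alternatives. The difference of the log2 fold changes was -0.01 (SE 0.97) for Scn2a, 0.02 (SE 0.27) for Cacna1a, 0.45 (SE 0.79) for Cacna2d2 and -0.96 (SE 0.59) for Cacna1e. Over the alternatives it ran from -0.99 to 0.35 for Scn2a and from -0.11 to 0.19 for Cacna1a. For Cacna2d2 it ran from -0.20 to 0.79, and for Cacna1e from -1.22 to -0.22.

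A further measure moved with the compartment effect. The channel genes have long transcripts, with a median exon length of 6985.5 bases against 3449 bases over all genes tested. Over all genes, the median log2 fold change between +/+ axons and somata fell with exon length, from 1.25 for genes of up to 1000 bases to -0.35 for those of 4000 to 8000 bases and -0.55 for those above 8000 bases. The axonal cDNA had more PCR cycles than the somatodendritic cDNA. The part of length in the values of the channel genes was not tested.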

How the data were processed

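RNA of both compartments was analyzed in 16 libraries of 4 groups (n = 4 each), taken from the sample titles. The authors deposited expected counts, that is, fractional reads per gene from featureCounts 1.6.4 after alignment with STAR 2.7.2b to GRCm39, with the versions from the submitters' processing notes. Reads with several alignments or overlapping genes were divided, and counting used the reverse-strand setting although the SMART-Seq kit does not mark strand. Counts were rounded. In R 4.3.3, edgeR 4.0.16 kept 19964 genes (expression filter by group), scaled libraries by TMM and fitted 4 group means to all 16 libraries. Contrasts used quasi-likelihood F-tests, two-sided, and p values were adjusted by the Benjamini-Hochberg method for all genes together with a threshold of 0.05. The SE was derived as the absolute log2 fold change over the square root of F. CPM uses TMM-scaled library sizes, and a library at 0 allows up to 3 counts, which covers counting error only. The model was tested on simulated data. Where the simulated axonal libraries were more spread than the somatodendritic ones, as here, the shared spread made the genotype test too lenient in axons and too strict in somata, and fits of the compared groups alone did not.

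The channel genes, partner lists and marker lists were chosen with earlier results of these data known. Channel genes are named for their levels and the compartment contrasts. For the genotype contrasts the named genes are those with an unadjusted p under 0.05, the sodium and calcium pore gene of highest level per length over all libraries (Scn2a, Cacna1a) and Cacna2d2, while the extremes of a range and single marker genes were named after their values were seen. Of each partner list, the 2 largest increases and decreases past the threshold in +/+ motoneurons are named, and Rrad in single libraries was added after its values were seen. Nalf1 and Nalf2 of the leak channel list were not matched by symbol, and some genes and sequences are not reported here. The interneuron, astrocyte or radial glia, fibroblast or mural, and nuclear RNA lists stand in the text. Of the others in +/+ axons, motoneuron markers had 3 of 6 tested genes lower, sensory neuron markers 3 of 6 lower and 1 higher, skeletal muscle markers 1 of 3 lower and microglia markers 0 of 5 called. Of the oligodendrocyte or Schwann markers, 1 of 7 tested was lower and 1 higher.

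Libraries of different groups share replicate numbers. Deviations from the group means, correlated over 19964 genes, gave 0.105 to 0.241 for same-numbered +/+ libraries of the 2 compartments and 0.175 to 0.508 for Hnrnpr-/- libraries, above the cutoff of 0.1 in every pair, so that compartments count as paired within a genotype. Between the genotypes the correlations were -0.0458 to 0.359 in somata and 0.00946 to 0.677 in axons, and the numbers were not taken as pairs. Identical runs of coding sequence and exon overlaps come from GENCODE and the GRCm39 genome, the build of the count table, in which all 40 genes were matched by symbol. Exon length, with 1 kilobase as 1000 bases, is the column of the count table. As alternatives, TMM was replaced by RLE size factors or by plain library totals, the filter was dropped or set to a minimum of 10 counts in all 4 libraries of some group, counts were left unrounded, and DESeq2 1.42.0 was run as default or with betaPrior and without independent filtering. Fits were also made with just the compared groups, with a replicate block, and leaving out each library. After the data had been seen, a block by culture and levels per canonical transcript length were added, as were fits without both axonal libraries of replicate 3 and without both Hnrnpr-/- libraries of replicate 4.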

Additional observations from a re-analysis of the deposited data

Results flagged for a closer look

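A gap test was run on the 4 libraries of each group for 33 of the tested channel genes, 132 groups in all. In 14 of them, 1 library stood apart from the other 3 by a gap above the 95% critical value of Dixon's test, in 10 genes. Chance alone flags about 1 in 20 groups where values are normally distributed, which CPM values, above all low ones, need not be. The test was not run over all genes, so no excess in channel genes is shown. The genes share libraries and are not independent.

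Replicate 1 stood apart on the high side in Hnrnpr-/- somata. Scn3b had 355.7 CPM in Hnrnpr-/- somatodendritic replicate 1, against 268 to 276 CPM in the other 3 libraries of its group. Cacna2d2 had 157.3 CPM in Hnrnpr-/- somatodendritic replicate 1, against 79.5 to 92.5 CPM in the other 3 libraries of its group. Cacnb1 had 84.11 CPM in Hnrnpr-/- somatodendritic replicate 1, against 67.6 to 70.1 CPM in the other 3 libraries of its group. Cacna1i had 10.95 CPM in Hnrnpr-/- somatodendritic replicate 1, against 4.29 to 5.2 CPM in the other 3 libraries of its group.

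Both Hnrnpr-/- libraries of replicate 4 had Myog, a muscle regulator, at 2.703 and 18.6 CPM. Scn7a had 0.8151 CPM in Hnrnpr-/- somatodendritic replicate 4, against 0.0412 to 0.168 CPM in the other 3 libraries of its group. Scn7a had 5.305 CPM in Hnrnpr-/- axonal replicate 4, against 0 to 0.15 CPM in the other 3 libraries of its group. Cacng1 had 2.719 CPM in Hnrnpr-/- axonal replicate 4, against 0 to 0.311 CPM in the other 3 libraries of its group.

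The other values concern single libraries. Cacng8 had 0.5163 CPM in +/+ somatodendritic replicate 4, against 0.754 to 0.787 CPM in the other 3 libraries of its group. Cacng6 had 2.488 CPM in +/+ axonal replicate 2, against 0.26 to 0.579 CPM in the other 3 libraries of its group. Scn3b had 263.5 CPM in +/+ somatodendritic replicate 3, against 318 to 327 CPM in the other 3 libraries of its group. Cacna1g had 28.09 CPM in +/+ somatodendritic replicate 2, against 18.5 to 19.9 CPM in the other 3 libraries of its group. Cacng1 had 0.4694 CPM in +/+ somatodendritic replicate 4, against 0.135 to 0.166 CPM in the other 3 libraries of its group. Cacng1 had 1.325 CPM in +/+ axonal replicate 2, against 0.325 to 0.367 CPM in the other 3 libraries of its group. Cacng4 had 166.5 CPM in Hnrnpr-/- somatodendritic replicate 3, against 145 to 147 CPM in the other 3 libraries of its group.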

How the results depend on the processing

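The 29 calls among channel genes in +/+ and the 28 in Hnrnpr-/- motoneurons changed by less than 1.5 times under all alternatives run, and the median log2 fold change remained below 0. With single libraries left out there were 28 to 30 calls in +/+ motoneurons (median -2.25 to -1.72) and 24 to 30 in Hnrnpr-/- motoneurons (median -2.49 to -1.73). With the replicate block by number there were 31 calls in +/+ and 28 in Hnrnpr-/- motoneurons, and with the block by culture 30 and 28. Without both axonal libraries of replicate 3 there were 30 and 27 calls, and without both Hnrnpr-/- libraries of replicate 4 there were 29 and 23. The genotype comparisons and their difference gave 0 calls among channel genes under every alternative, while the 2 genes called over all genes in axons became 5 with either DESeq2 setting, 1 with the replicate block or with just the axonal libraries, and 1 to 3 with single libraries left out. Apart from Scn7a, Scn4b and Cacng5 in +/+ motoneurons, a block changed no call.

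Of the called genes, 27 of 29 in +/+ and 23 of 28 in Hnrnpr-/- motoneurons kept their call under every alternative that tested them. In +/+ motoneurons Cacng6 lost it without somatodendritic replicate 3 (adjusted p = 0.0577 from edgeR), somatodendritic replicate 4 (0.0562) or axonal replicate 2 (0.112), and Cacng4 without axonal replicate 3 (0.0511). In Hnrnpr-/- motoneurons, Cacng4 lost it without somatodendritic replicate 1 or 3 or axonal replicate 1, 3 or 4 and with library totals in place of TMM or without both axonal libraries of replicate 3, Cacna1i without somatodendritic replicate 1 or axonal replicate 4, and Cacng5 without axonal replicate 4. Without both libraries of replicate 4, these 3 and Cacng3 (log2 fold change -1.78) were among the genes that lost their calls, in a fit of fewer samples. The causes were not tested. Calls were gained in +/+ motoneurons by Scn4b with both DESeq2 settings, and in Hnrnpr-/- motoneurons by Cacna2d4 (without +/+ axonal replicate 2 or Hnrnpr-/- axonal replicate 1, or with default DESeq2), by Cacng6 (without Hnrnpr-/- axonal replicate 1) and by Scn4b (without +/+ axonal replicate 2, or with just these groups). Low counts limit Scn7a, Cacng1, Cacng6 and Cacng8, with less than 1 CPM in every somatodendritic library, and other genes at such levels in axons.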
